A study of Mus musculus with 18 samples.

Results

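Small leucine-rich proteoglycans are short secreted proteins of the extracellular matrix, built from leucine-rich repeats. The genes described here were 9 members of the family, chosen by name from the family: Dcn (decorin), Bgn (biglycan), Aspn (asporin), Lum (lumican), Fmod (fibromodulin), Prelp, Omd (osteomodulin), Ogn (osteoglycin) and Podn (podocan). They were 9 of the 29214 genes listed in the bulk table, and all 9 were listed in every other table. The data came from bladders of C57BL/6 mice and held 18 samples in 11 groups: dissociated cells and nuclei in droplets, tissue sections on spotted arrays, and bulk RNA. The comparisons were between cell classes, between kinds of fibroblast, between nuclei and cells, between ages, between regions of a section, and between intact bladder and a suspension of dissociated bladder cells.

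The whole-bladder droplet libraries were pools of 3 male mice of 22 months (library 1), 3 male mice of 3 months (library 2), 2 female and 2 male mice of 12 months (libraries 3 and 4) and 2 female and 2 male mice of 24 months (library 5). A library of nuclei came from 2 female and 2 male mice of 12 months. The detrusor-only library, from the muscular layer of the wall, came from 3 female mice of 14 months, and the detrusor-enriched library came from 2 female and 2 male mice of 14 months. Sections 1 and 2 were frozen bladder sections labelled with 4 male mice of 22 months, and sections 3 and 4 with 4 male mice of 14 months. The 3 intact and 3 dissociated bulk libraries were each labelled with 3 female mice of 12 months. The labels do not say whether libraries shared animals, so p-values measure the spread between these samples, which may be technical.

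Family members carry their repeats on a core protein, to which chondroitin or dermatan sulphate chains are attached in decorin and biglycan and keratan sulphate chains in lumican and fibromodulin. Decorin, biglycan and asporin are grouped as class I; lumican, fibromodulin, Prelp and osteomodulin as class II; osteoglycin as class III and podocan as class V. Decorin, lumican and fibromodulin bind fibrillar collagen and limit fibril width, and decorin, biglycan and asporin bind growth factors of the TGF-beta family. In the bladder wall such a matrix lies in the lamina propria under the urothelium and between the bundles of the detrusor muscle.

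Several members are neighbours in the genome. In the RefSeq annotation of GRCm38.p6, Dcn lay on chromosome 10 at 97479500 to 97518163 and Lum at 97565501 to 97572703, with 47.337 kb between them. Aspn (49544443 to 49567565), Omd (49582462 to 49592612) and Ogn (49608015 to 49624501) followed each other on the plus strand of chromosome 13, with gaps of 14.896 kb and 15.402 kb. All 3 lay within the span of Cenpp on the minus strand, and the strand setting of the bulk counting is not given in the sources used here. Prelp (133910304 to 133930102) and Fmod (134037254 to 134048280) lay on chromosome 1, on opposite strands, 107.151 kb apart. Podn lay on chromosome 4 at 108014793 to 108031954 and Bgn on the X chromosome at 73483601 to 73495936.

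The 250 bases before the start of Aspn, Omd and Ogn are shown because the 3 genes adjoin each other. The RefSeq promoter table of GRCm38.p6 held 7 of the 9 members. The windows are chr13:49544193-49544442 for Aspn, chr13:49582212-49582461 for Omd and chr13:49607765-49608014 for Ogn, all on the plus strand and written 5′ to 3′, with motif matches in capitals:
Aspn: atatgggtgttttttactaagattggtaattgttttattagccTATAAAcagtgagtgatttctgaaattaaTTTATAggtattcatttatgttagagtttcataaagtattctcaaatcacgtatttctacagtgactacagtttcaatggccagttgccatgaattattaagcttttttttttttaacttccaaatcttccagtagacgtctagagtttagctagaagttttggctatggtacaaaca
Omd: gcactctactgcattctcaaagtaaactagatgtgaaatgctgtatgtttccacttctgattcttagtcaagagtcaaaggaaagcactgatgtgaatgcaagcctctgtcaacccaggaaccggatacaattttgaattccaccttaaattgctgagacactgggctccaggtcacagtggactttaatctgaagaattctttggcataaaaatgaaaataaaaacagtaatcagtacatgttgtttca
Ogn: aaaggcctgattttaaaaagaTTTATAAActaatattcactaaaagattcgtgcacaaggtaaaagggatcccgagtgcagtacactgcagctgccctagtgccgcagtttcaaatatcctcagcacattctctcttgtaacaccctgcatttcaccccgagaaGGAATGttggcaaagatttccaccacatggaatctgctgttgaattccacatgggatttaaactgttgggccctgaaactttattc
Both strands were searched for the TATA box, spelled TATAAA, for the AP-1 site, spelled TGANTCA, for the TEAD site, spelled GGAATG, for the GC box, spelled GGGCGG, and for the CArG box. Aspn held 2 matches to TATAAA, at 207 bases before the start on the plus strand and at 178 on the minus strand. Ogn held 2 overlapping matches to TATAAA, at 229 bases on the minus and 227 on the plus strand, and 1 match to GGAATG at 86 bases. Omd held none of the motifs. TATAAA was present in 12.4% of the 32851 windows of the table and GGAATG in 12.6%, and the GC content of the windows of Aspn, Omd and Ogn was 30%, 38.4% and 42%. A match is a description of the letters and not of a binding site.

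After filtering, the droplet libraries held between 948 and 8420 cells (3375 nuclei), and the median molecule count (UMI, unique molecular identifier) per barcode ranged from 1126.5 in nuclei to 15042 in library 4. The sections held 937 to 1317 spots with a median of 14003 to 17222.5 UMIs, and the bulk libraries 23083752 to 68760791 counted reads. At most 64 barcodes were shared between a pair of droplet libraries, which was 1.00% of the smaller one. The male libraries 1 and 2 stood apart. Their fibroblast-like cells held 52359 and 41319 CPM (counts scaled to a common library total) of ribosomal protein genes against 166908 to 190335 in the other cell libraries, and 4159 and 4134 CPM of Malat1 against 25262 to 34238. In these libraries the sex of the mice and the making of the library cannot be told apart.

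Cells were clustered within each library and a cluster was named after a cell type from its markers. Counts were then summed per library and class, leaving out sums of fewer than 20 cells, and scaled to CPM without the mitochondrial genes. Because the classes were built from the same cells, levels between classes are descriptions and carry no test. Each value below is the level of 1 gene, and no gene is compared with another in level, since UMI counts are not scaled for capture.

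Fibroblast-like cells, identified in all 7 cell libraries, held every member. Dcn lay between 14739 and 32593 CPM with a median of 17593, and Bgn between 1446 and 2151. Lum lay between 579 and 2264 CPM, with the 2264 in the detrusor-only library. Fibromodulin and Prelp, like lumican, are known to bind collagen. Prelp ranged from 315 to 740, Podn from 98.4 to 202, Fmod from 27.0 to 74.0, and Aspn from 22.9 to 71.6. Omd ranged from 2.52 to 17.9 CPM. Ogn lay between 115 and 217 CPM in 6 libraries and at 571 in the detrusor-only library, which also had the highest Aspn, Lum and Omd and the lowest Prelp of the 7. It was the only cell library of female mice alone, and its fibroblast-like clusters held at most 143 CPM of Cxcl14. Each other cell library had at least 1 such cluster with 4691 CPM or more. What these differences did to the member levels was not tested.

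Urothelial-like cells, which should lack these genes, gave a measure of the background. Dcn was present with at least 1 UMI in 57.6% to 98.3% of urothelial-like cells, against 99.3% to 100% of fibroblast-like cells, at median depths of 639 to 18568 and 1629.5 to 11672 UMIs. In library 1, 98.3% of urothelial-like cells carried a Dcn UMI at a level of 1609 CPM, and macrophage-like cells of that library held 1800 CPM. Over the 6 libraries with urothelial-like cells the urothelial level of Dcn ranged from 46.2 to 1609 CPM, below the lowest fibroblast-like value. Some shallower classes held more Dcn. T or NK-like cells of library 2 (median 750.5 UMIs) held 3336 CPM, against 643 in its urothelial-like cells (3181 UMIs). Lymphatic endothelial-like cells of library 1 (1291 UMIs) held 3754 CPM. For Lum the shares were 3.56% to 29.96% in urothelial-like and 23.2% to 97.0% in fibroblast-like cells, so that the shares overlapped between libraries while the CPM did not (3.92 to 94.7 against 579 to 2264). Aspn reached 0.137% to 1.74% of urothelial-like cells.

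Mesothelial-like cells, the lining of the outer surface, were summed in 5 cell libraries with 28 to 117 cells each and in nuclei. A sixth cell library, library 3, had 11 mesothelial-like cells, under the minimum, with Fmod at 148, Lum at 192 and Omd at 34.8 CPM. Dcn was between 15882 and 49468 CPM, overlapping the fibroblast-like range. In the 5 libraries Fmod lay between 165 and 396 CPM, above the fibroblast-like range of 27.0 to 74.0 in each library. Omd, between 19.2 and 90.0, was likewise above the fibroblast-like range of class sums. It rested on 5 UMIs in each of libraries 1, 2 and 5. Single fibroblast-like clusters held more Omd in library 2 (cluster 6, 109 against 90.0 CPM) and library 1 (cluster 10, 49.98 against 32.6). The same held in detrusor-only (cluster 12, 27.7 against 22.8) and detrusor-enriched (cluster 2, 23.5 against 21.2). In library 5 the highest fibroblast-like cluster held 7.37 CPM, against 19.2. Bgn (242 to 684 CPM), Lum (11.9 to 143) and Aspn lay below the fibroblast-like range of class sums. Single fibroblast-like clusters held less Lum in library 2 (cluster 3, 33.7 against 126 CPM) and library 5 (cluster 2, 54.7 against 142). They held less Bgn in library 1 (cluster 10, 459 against 502) and library 2 (cluster 6, 517 against 684). In the other summed libraries no such cluster was lower in these genes. Cluster 7 of library 1 held 1.36 CPM of Aspn. Aspn had no UMI in 4 of these 5 libraries and in the mesothelial-like nuclei, where 3 counts would have been 1.37 to 54.0 CPM, and 6.52 CPM in library 1.

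Mural cells wrap the vessels and are known for contractile genes. Pericyte-like cells, found in library 1, library 2, the detrusor-only and the detrusor-enriched library (22 to 181 cells), held Aspn at 559, 769, 351 and 310 CPM. All 4 values lay above the highest fibroblast-like value of 71.6 CPM, and 48.4% to 71.8% of pericyte-like cells carried an Aspn UMI. Their Bgn was 477 to 1117 CPM, while Fmod was at most 3.70. Dcn in pericyte-like cells was 824 CPM in the detrusor-only library, 5341 in library 1, and 2268 and 1275 in library 2 and detrusor-enriched, in the order of the urothelial-like levels of those libraries (1609, 643 and 330). The part of free RNA in them was not tested.

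Smooth muscle-like cells separated into clusters with opposite values of Aspn and Ogn. In the detrusor-only library, cluster 10 (207 cells) was led by Pln and Rergl, which are typical of vessel muscle, and cluster 9 (218 cells) by Col25a1, Tnnt2 and Ryr3. Aspn was 399 CPM (95% exact Poisson interval 369 to 431) in cluster 10 and 46.3 CPM (38.7 to 55.0) in cluster 9. Ogn was 172 CPM (152 to 193) in cluster 10 and 849 CPM (815 to 884) in cluster 9, and Bgn was 976 and 568 CPM. The intervals cover counting error only.

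The same opposition appeared in the detrusor-enriched library. Its single smooth muscle-like cluster (108 cells) was also led by Pln and Rergl and held Aspn at 404 CPM (367 to 443) and Ogn at 191 (167 to 219). An unnamed cluster of 52 cells led by Col25a1 and Lrrc7 held Aspn at 27.5 CPM (11.1 to 56.6) and Ogn at 550 (462 to 649). The 3 smooth muscle-like clusters of nuclei were led by Col25a1, Lrrc7 and Rbm24. They held 1, 1 and 4 Aspn UMIs (0.886, 1.99 and 19.9 CPM), against 2.12 CPM in urothelial-like nuclei, while Ogn was 72.7, 207 and 69.6 CPM against 10.2.

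Lymphatic endothelial-like cells held Prelp at 707 to 926 CPM in 4 cell libraries and 337 in nuclei, against 19.0 to 62.8 CPM in blood endothelial-like cells. Aspn and Omd had no UMI in lymphatic endothelial-like cells of any of 5 libraries, where 3 counts would have been 3.44 to 105 CPM. In the detrusor-only library a Schwann-like cluster of 20 cells held Ogn at 963 CPM (743 to 1227), against 21.7 and 23.3 in the other Schwann-like clusters of that library. An unnamed cluster of 51 cells in the same library, led by Spink1, Lypd2 and Myoc, held Dcn at 27856 CPM, Omd at 138 CPM (104 to 180) and Aspn at 143 CPM (108 to 186).

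**Figure D1:**
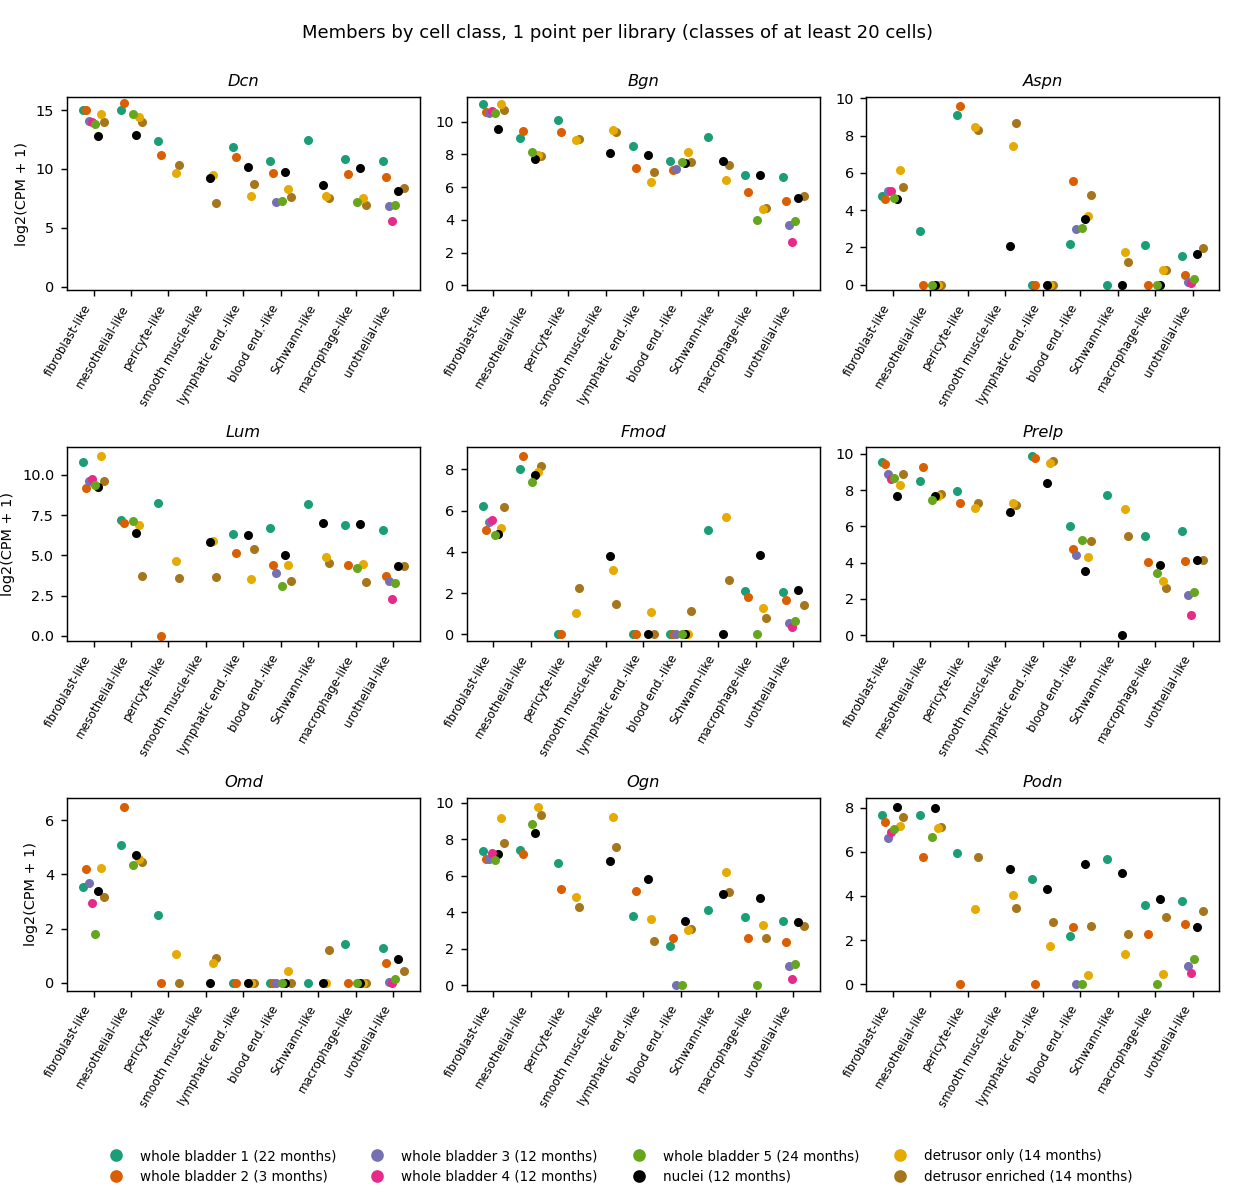
Level of each member (log2(CPM + 1)) in each named cell class, with 1 point per library. Dcn and Prelp are spread over fibroblast-like and mesothelial-like cells, Aspn is at 310 to 769 CPM in pericyte-like cells against 22.9 to 71.6 in fibroblast-like cells, and Prelp is at 707 to 926 CPM in lymphatic endothelial-like cells.

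Fibroblast-like cells were then divided by Pi16, Cxcl14 and Inmt, genes that mark different fibroblasts. Pi16 marks fibroblasts of vessel sheaths and outer layers in many organs, and Cxcl14 encodes a chemokine. A cell entered a subset if it held at least 1 UMI of 1 of these genes and none of the other 2. Sums of at least 20 cells per library and subset gave 6 libraries for Pi16, 5 for Cxcl14 and 4 for Inmt, and 7997 genes were tested with library as a block. Most fibroblast-like cells held more than 1 of the 3 genes (4282 of 5772 in library 1) and entered no subset.

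Aspn and Lum had the largest fitted changes between the Cxcl14 subset and each of the others. Aspn was 30.4, 50.8, 57.4, 56.1, 68.2 and 49.9 CPM in the Pi16 subset of libraries 1, 2, 3, 5, detrusor-only and detrusor-enriched. In the Cxcl14 subset it was 1.60, 1.33, 6.18, 4.12 and 1.88 CPM in libraries 1, 2, 3, 5 and detrusor-enriched, from 2 to 8 UMIs a library. In the Inmt subset it was 73.3, 86.4, 79.4 and 164 CPM in libraries 1, 2, detrusor-only and detrusor-enriched. The 3 subsets did not overlap in Aspn. Lum, which binds collagen and carries keratan sulphate, was 2999, 774, 1498, 905, 1930 and 1591 CPM in the Pi16 subset and 275, 117, 68.0, 68.7 and 59.8 in the Cxcl14 subset. In the Inmt subset Lum was 5982, 4665, 1776 and 1942 CPM, so that the Cxcl14 subset lay below both others in each library.

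Against the Cxcl14 subset, the Pi16 subset had 5 of the 9 members higher and 3 lower by edgeR's quasi-likelihood test (Benjamini-Hochberg adjusted p under 0.05 over all genes), where 25.8% of all genes were called, 12.4% higher and 13.4% lower. The log2 fold change was 4.52 (SE 0.34, adjusted p 1.24e-11) for Aspn and 3.97 (SE 0.42, 0.000189) for Lum. Omd (2.85), Ogn (1.505) and Dcn (1.15, SE 0.11, adjusted p 2.87e-09) were higher too. In CPM these 5 genes were higher in the Pi16 subset in 5 of 5 libraries that held both subsets. For Omd this rests on few UMIs, with 4 against 0 in library 3, 1 against 0 in library 5 and 2 against 5 in the detrusor-enriched library, whose Cxcl14 sum was deeper. Omd was not tested without library 2 or without the library block.

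Prelp (-1.61, SE 0.13, adjusted p 5.48e-11), Podn (-0.91) and Bgn (-0.52, adjusted p 0.00648) were lower in the Pi16 subset than in the Cxcl14 subset. Prelp and Podn were lower in 5 of 5 libraries and Bgn in 4 of 5. Prelp, a collagen-binding member found at basement membranes, was 410, 260, 217, 182, 211 and 266 CPM in the Pi16 subset and 1060, 896, 705, 676 and 685 in the Cxcl14 subset, with no overlap. The Bgn call was lost without library 1, without library 2, under the naming rule first written (a cluster's markers raised over all other cells) and without the library block; the last also ended the Dcn and Podn calls. Fmod did not pass (-1.19, adjusted p 0.1), but was called in DESeq2, with no filter, by most UMIs, after thinning and without the detrusor-enriched library.

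Against the Inmt subset, the Cxcl14 subset had 5 members lower and 2 higher, with 21.4% of genes called (9.84% higher, 11.5% lower). Aspn (-5.75), Lum (-4.98), Omd (-3.99), Ogn (-2.86) and Dcn (-1.71, SE 0.13, adjusted p 3.37e-11) were lower, and each was lower in 3 of 3 libraries with both. Prelp (0.98, adjusted p 1.12e-05) and Bgn (0.57, adjusted p 0.0121) were higher. The Bgn call was lost without library 1, library 2 or the detrusor-only library, in DESeq2, under the first naming rule and without the library block. Fmod (-1.26, adjusted p 0.0899) and Podn (0.41) did not pass. Podn was called higher by library size alone and with subsets set by most UMIs. Fmod was 0.60 with subsets set by most UMIs and 0.26 after thinning, without a call, and it was called lower with no filter, without library 5 and without the detrusor-enriched library.

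Between the Pi16 and Inmt subsets 5 members were lower in the Pi16 subset and none was higher, with 9.34% of genes called (3.75% higher, 5.59% lower). On the log2 scale Fmod differed by -2.45 (SE 0.49, adjusted p 0.0104), Ogn by -1.36, Aspn by -1.23, Prelp by -0.63 and Dcn by -0.56. Fmod rested on few UMIs in the Pi16 subset. They were 21, 2, 2, 0, 2 and 38 in libraries 1, 2, 3, 5, detrusor-only and detrusor-enriched. Ogn was 138, 267, 148, 92.5, 456 and 245 CPM in the Pi16 subset and 621, 368, 682 and 647 in the Inmt subset. The Ogn ranges overlapped between libraries, and within each of the 4 libraries with both subsets the Pi16 value was the lower. Lum (-1.003, adjusted p 0.193) did not pass. The Fmod call was lost without library 1 or library 2, and the Aspn and Ogn calls without the detrusor-enriched library. The 3 contrasts share subsets. Between Pi16 and Inmt, 2 members were called when each cell was placed by its most abundant gene of the 3, and 1 when cells were thinned to 1000 UMIs. Under the first naming rule 1 was called, and Dcn, Fmod, Prelp and Ogn lost their calls. Without the library block edgeR called 0, although the unadjusted p was under 0.05 for 6 members. DESeq2 with the block called 6.

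The subsets differed in depth and in genes that respond to dissociation. The 27-gene dissociation list summed to 16586 to 31477 CPM in the Pi16 subset, 23701 to 36559 in the Cxcl14 subset and 34355 to 50946 in the Inmt subset, and 15 of its 26 tested genes were lower in Pi16 than in Inmt. Median UMIs per cell were 1204 to 6158, 1941 to 14667.5 and 1094 to 6618. Their part in the member values was not tested.

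In nuclei the subsets held 128 (Pi16), 16 (Cxcl14) and 57 (Inmt) nuclei. Lum was 670, 64.7 and 627 CPM, Prelp 176, 388 and 161 CPM, and Dcn 7377, 3686 and 6466 CPM. Between the Pi16 and Cxcl14 nuclei Lum, Prelp and Dcn lay in the order of the cells. Podn (275 and 259 CPM) and Fmod (35.3 and 0) lay in the opposite order. The Cxcl14 nuclei held 15464 UMIs of all genes, too few to read the order of Lum, Prelp, Podn or Fmod. Between the Pi16 and Inmt nuclei Dcn, Prelp and Ogn (148 and 125 CPM) lay opposite to the cells, where all 3 were called lower in the Pi16 subset. Prelp rested on 25 and 9 UMIs there and Ogn on 21 and 7. This is 1 library with no test. Aspn counts in nuclei were 2, 0 and 0, too few to compare.

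Other matrix genes also differed between the Pi16 and Cxcl14 subsets. Of 11 tested elastic fibre genes 7 were higher and 3 lower in Pi16 (median log2 fold change 1.88), among them Mfap5 (6.07), Fbln2 (3.34), Fbn1 (2.75) and Fbln1 (2.45). Of 12 fibrillar collagen and cross-linking genes 3 were higher and 8 lower (median -1.03), with Lox, which cross-links collagen, at -2.18. Of 5 genes of collagens VI, XII and XIV 4 were lower and Col14a1 was higher at 5.52. Mfap5 is among the fibroblast class markers.

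**Figure D2:**
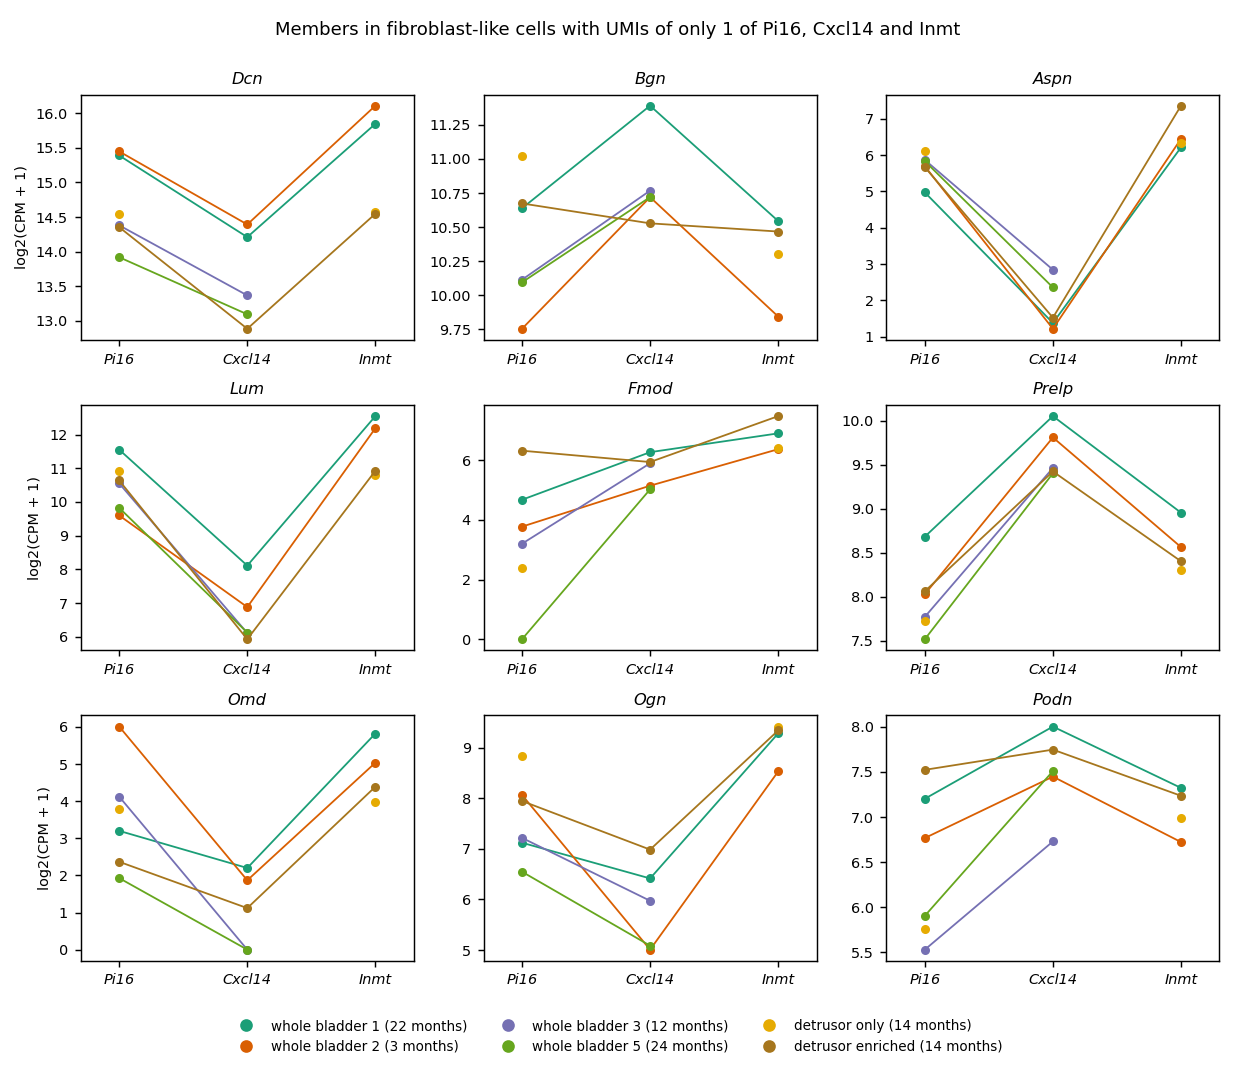
Level of each member (log2(CPM + 1)) in the fibroblast-like cells with UMIs of only Pi16, only Cxcl14 or only Inmt, with 1 point per library and lines joining neighbouring values of a library. Aspn and Lum of the Cxcl14 subset lie below both other subsets in every library that holds them, and Prelp of the Cxcl14 subset lies above both.

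Nuclei and cells of fibroblast-like class were compared over 1 nuclei library and 5 whole-bladder cell libraries, so no spread of nuclei was measured, and each SE and p below assumes that nuclei vary as the cell libraries do. Dcn was 7314 CPM in nuclei and 31953, 32593, 17593, 16597 and 14739 in libraries 1 to 5. Bgn was 755 in nuclei and 2151, 1507, 1483, 1612 and 1446 in cells. Prelp was 201 in nuclei and 740, 696, 476, 395 and 406 in cells. In each case nuclei lay below every cell library. Of 12424 genes tested 24% were called, 8.38% higher and 15.7% lower in nuclei, and 3 of 9 members passed as lower, against 0 of 9 when scaled by library size alone. The log2 fold changes were -2.49 (SE 0.58, adjusted p 0.0212) for Dcn, -2.02 (adjusted p 0.0182) for Bgn and -2.30 (adjusted p 0.0125) for Prelp. Over all the alternatives the smallest changes of these 3 genes were -1.63, -1.12 and -1.43. The Dcn call was lost without library 1, and against the 12-month cell libraries alone Lum and Fmod were called lower too, making 5 members.

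Podn did not follow (262 CPM in nuclei and 202, 162, 98.4, 119 and 128 in cells, log2 fold change 0.003). The other 5 members had log2 fold changes of -1.56 to -0.81, with adjusted p of 0.115 to 0.54. By library size alone in edgeR the unadjusted p was under 0.05 for 3 members. With library size alone the median of all genes moved from -0.31 to 0.57, and the share of higher calls among all called genes was 84.9% in place of 34.9%. DESeq2 with its own size factors called 3 members. Fibroblast-like nuclei also held 12256 CPM of 10 smooth muscle marker genes against 307 to 2527 in cells, and 2664 CPM of the dissociation list against 30141 to 37161. The mix of subsets differed too, with 128 Pi16 and 16 Cxcl14 nuclei. In libraries 1, 2, 3 and 5 the Cxcl14 cells outnumbered the Pi16 cells (813 and 438 in library 1). Within the Pi16 subset Prelp was 176 CPM in nuclei and 410, 260, 217 and 182 in cells of those libraries. Dcn there was 7377 against 15500.5 to 44706.8 CPM, and Bgn 585 against 863 to 1593. The part of these differences in the member values was not tested.

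**Figure D3:**
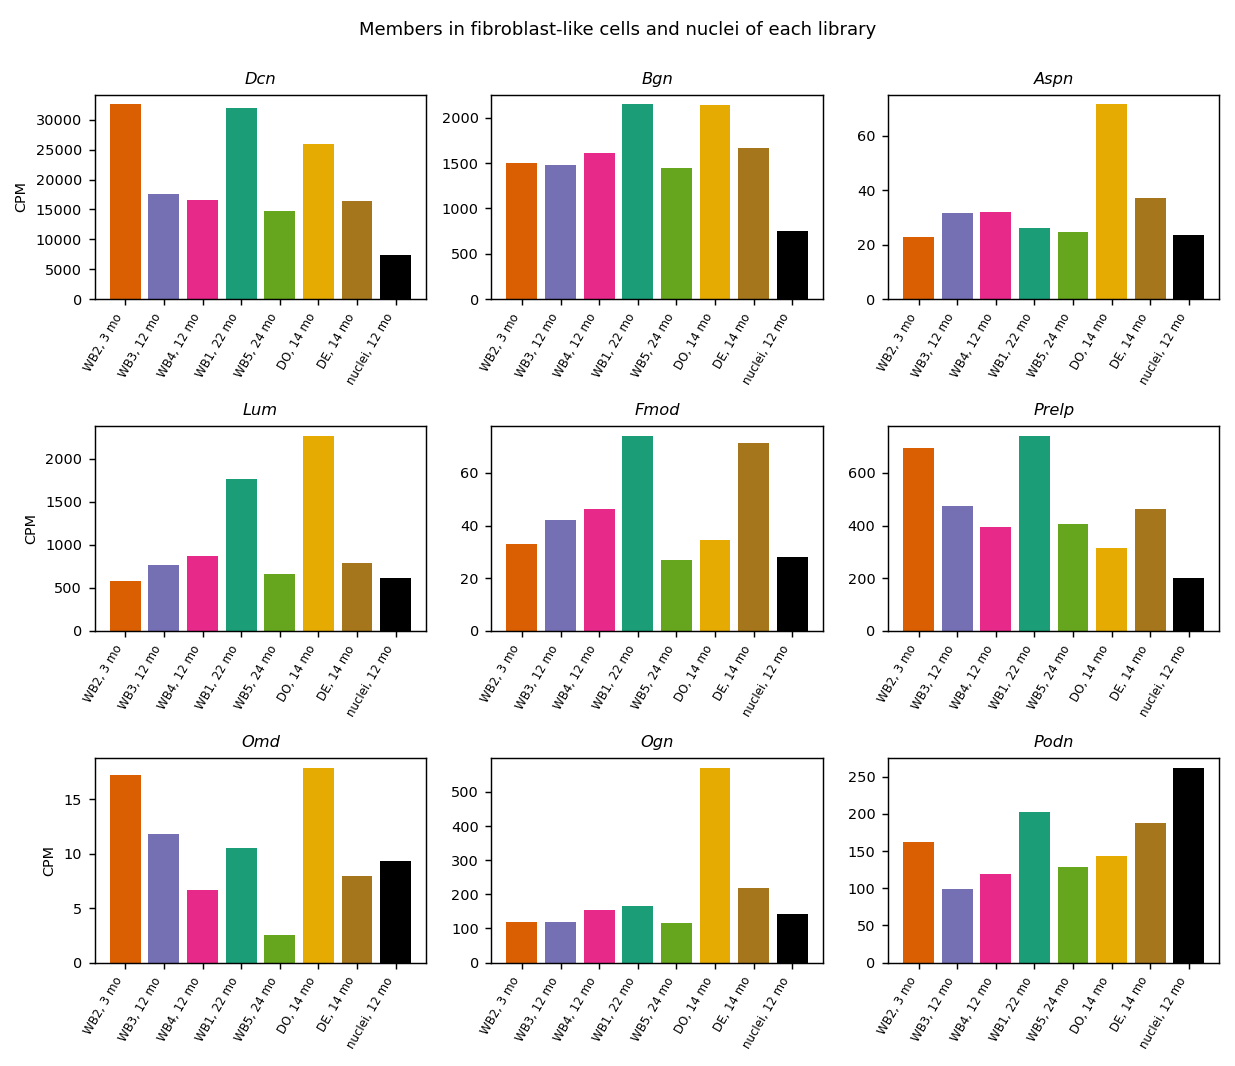
Level of each member (CPM, bars from 0) in fibroblast-like cells of each library; mo is months, WB is whole bladder with its number, DO detrusor-only and DE detrusor-enriched, and nuclei are the last bar. Nuclei lie below every cell library for Dcn, Bgn and Prelp, and Ogn of the detrusor-only library stands at 571 CPM.

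Fibroblast-like cells of 22 and 24 months (libraries 1 and 5) were compared with those of 3 and 12 months (libraries 2, 3 and 4), with the sex mix as a covariate. None of the 9 members was called by edgeR, where 0.017% of 11739 genes were called. Omd alone had an unadjusted p under 0.05 (log2 fold change -1.15, SE 0.38, p 0.015, adjusted p 1), as did 306 of all genes, and DESeq2 also called 0 members. Omd rested on few counts (10.5, 17.2, 11.8, 6.63 and 2.52 CPM in libraries 1 to 5). Without library 5 the older group was library 1 alone, assumed to vary like the younger libraries, and Lum was then called higher in it, with 118 genes called. Without library 1 or without library 2 the log2 change of Lum was -0.36, against 0.54 with all libraries.

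Over whole sections, Lum was 77.3 and 49.7 CPM at 22 months (sections 1 and 2) and 101 and 199 at 14 months (sections 3 and 4). Podn was 53.7 and 45.8 against 65.7 and 65.7, and Fmod was 30.4 and 37.3 against 24.9 and 25.9. Dcn (1222 and 1008 against 1347 and 1397) and Prelp (246 and 309 against 347 and 368) also lay lower at 22 months. The ages did not overlap for these 5 members and overlapped for the other 4, with 2 sections at each age. The share of all genes without overlap was not counted, so this is a description of the members alone. None of 14995 genes, 0%, was called by edgeR, while 2 members and 2488 genes had an unadjusted p under 0.05. The log2 fold changes were -1.17 (SE 0.43, adjusted p 0.326) for Lum, 0.48 (adjusted p 0.202) for Fmod and -0.34 (adjusted p 0.177) for Podn. DESeq2 called 420 genes and 0 members. Without section 1 the 22-month group was section 2 alone, assumed to vary like the 14-month sections, and Fmod was then called, with 300 genes called.

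Within sections, spots were placed by the top 25% for a muscle, urothelium or collagen gene list into muscle-rich, urothelium-rich and collagen-rich spots, and counts were summed per section and class. A spot covers several cells, and the genes that placed the spots were left out of the test. Urothelium-rich spots were deeper (median 32548 to 61348 UMIs) than the others (11454 to 20283). Fewer cells of a type and less RNA per cell cannot be told apart in spots or in bulk samples.

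Every member was lower in urothelium-rich spots. Dcn was 417, 380, 459 and 419 CPM in urothelium-rich, 1529, 1372, 1845 and 1811 in muscle-rich, and 1959, 1641, 2475 and 2895 in collagen-rich spots of sections 1 to 4. Muscle-rich against urothelium-rich spots had 9 of 9 members higher, with log2 fold changes of 1.962 to 3.54, where 73.9% of 13427 genes were called (35.1% higher, 38.8% lower). Collagen-rich against urothelium-rich spots had 9 of 9 higher, 1.85 to 2.58, where 60.2% were called (28.2% higher, 32% lower). Omd rests on 1 to 6 UMIs in urothelium-rich spots of a section. It fell below the filter, and was not tested, without section 1, 2 or 3, with the stricter top share of spots and without the section block. Its call in collagen-rich spots was lost without section 4.

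Ogn and Bgn differed between muscle and collagen regions. Ogn was 99.1, 212, 315 and 121 CPM in muscle-rich and 52.8, 39.5, 126 and 71.7 in collagen-rich spots, and in every section the muscle value was the higher. Bgn was 1079, 1864, 1393 and 1874 in muscle-rich and 722, 944, 1203 and 1844 in collagen-rich spots, again higher in muscle in each section, by little in section 4. The log2 fold change of collagen-rich against muscle-rich was -1.55 (SE 0.30, adjusted p 0.00334) for Ogn and -0.64 (SE 0.17, adjusted p 0.00834) for Bgn. These were 2 of 9 members called, where 49.4% of genes were called (23.3% lower). Without the section block the Bgn call was lost. Dcn (0.23, adjusted p 0.112) and Lum (-0.84, adjusted p 0.131) did not pass. Scaled by library size alone, Dcn was called higher in collagen-rich spots. With the stricter top share of spots Lum and Fmod were called lower there. Lum was 187, 133, 168 and 328 CPM in muscle-rich and 76.2, 36.3, 167 and 434 in collagen-rich spots, so that the sections differed in direction, and without section 4 Lum was called lower in collagen-rich spots.

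Across the spots of a section, which share depth and neighbours, the correlation of log-scaled values was described without a test. Over the 4 sections the median r was 0.62 between Dcn and Bgn, 0.70 between Bgn and Myh11, the smooth muscle myosin, and -0.52 between Dcn and Upk1b, a urothelial plaque protein. Aspn had a median r of 0.06 with Myh11 and 0.13 with Dcn, at 9.08% to 14.9% of spots with an Aspn UMI.

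**Figure D4:**
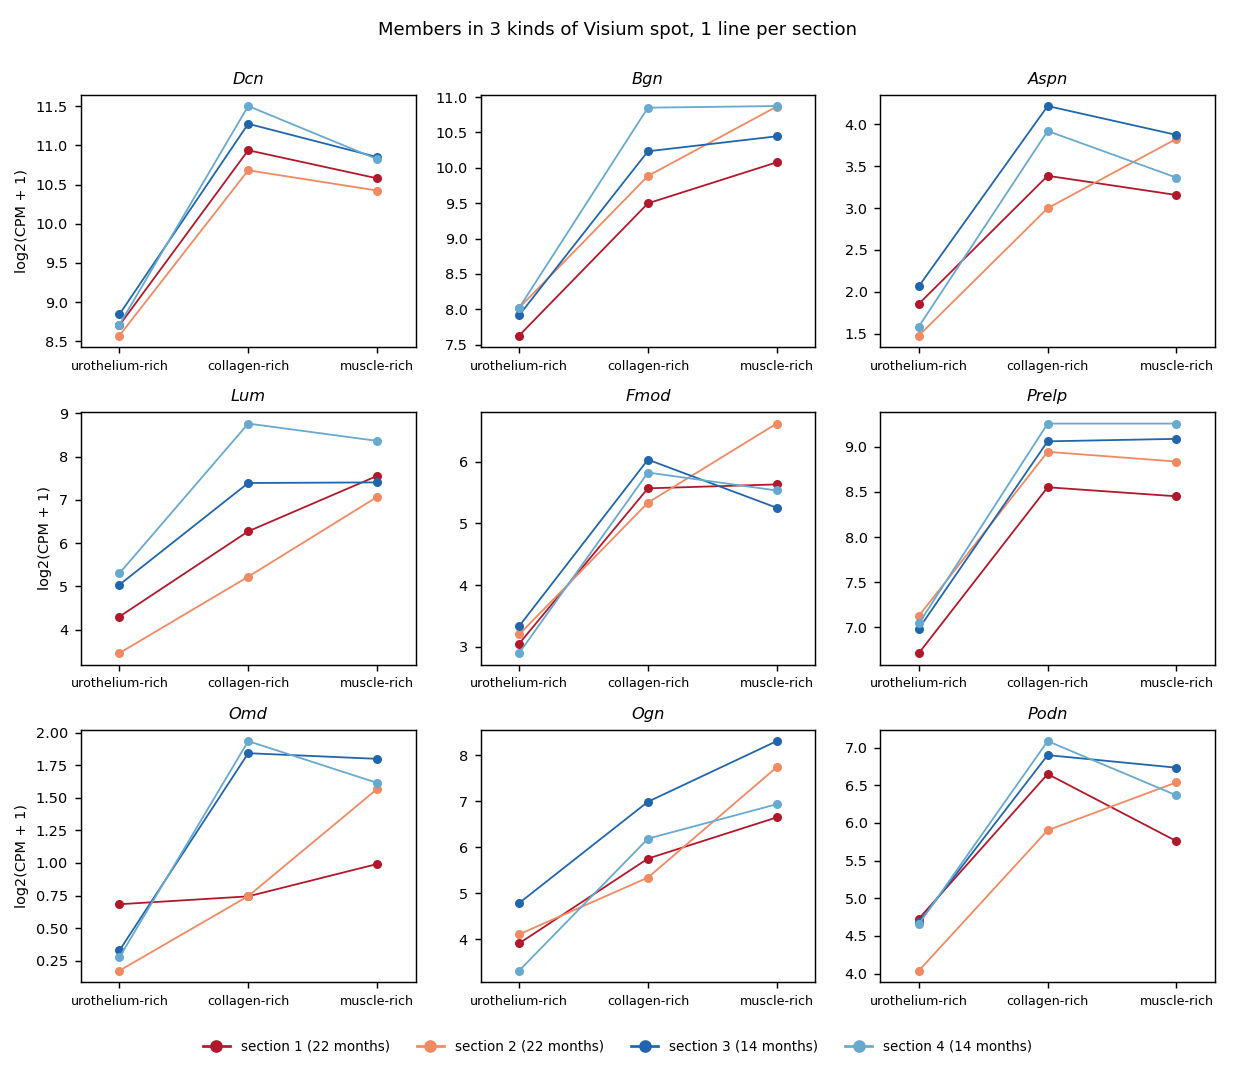
Level of each member (log2(CPM + 1)) in urothelium-rich, collagen-rich and muscle-rich spots of the 4 sections, with lines joining the values of a section. Every member is at its lowest in urothelium-rich spots, and Ogn and Bgn are higher in muscle-rich than in collagen-rich spots in each section.

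Bulk RNA compared intact bladder with the suspension made from dissociated bladder, a step that the droplet cells also passed. Dcn was 2718, 2588 and 2964 CPM in intact and 8103, 7548 and 6396 in dissociated libraries, and Lum was 331, 297 and 250 against 930, 919 and 565. Aspn was 8.88, 5.92 and 5.58 against 15.9, 17.2 and 13.0. These 3 did not overlap between the groups, nor did Bgn, Fmod and Podn. Bgn was 1060, 832 and 794 against 1651, 1214 and 1139. Fmod was 38.7, 42.3 and 48.1 against 63.8, 67.9 and 56.0, and Podn was 133, 111 and 129 against 207, 169 and 160. Omd was 1.13, 0.698 and 1.04 against 2.81, 2.33 and 3.55, and it too did not overlap. Prelp (449, 379 and 474 against 568, 435 and 555) and Ogn (181, 138 and 160 against 182, 210 and 157) overlapped between the groups. How many of all genes did not overlap was not counted, so this describes the members alone.

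Of 16538 genes tested 59.2% were called, 27.9% higher and 31.3% lower in dissociated libraries, and 7 of 9 members were higher. The log2 fold changes were 1.75 (SE 0.29, adjusted p 0.00145) for Omd, 1.57 (SE 0.20, 0.000449) for Lum, 1.52 (SE 0.12, 3.73e-05) for Dcn and 1.29 (SE 0.20, 0.00104) for Aspn by edgeR. Bgn (0.69), Fmod (0.65) and Podn (0.64) were higher by less. Prelp (0.37, adjusted p 0.0522) and Ogn (0.31, adjusted p 0.0785) did not pass in edgeR, while DESeq2 called 9 of 9 members. Prelp was also called in edgeR with other size factors, with the replicate number as a block and without dissociated library 2. Ogn was called in edgeR without intact library 1 or dissociated library 3. With a log2 minimum of 1 the calls were Dcn, Lum and Omd.

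The mix of cells moved too. The 12 fibroblast markers summed to 14889 to 18173 CPM in intact and 27613 to 40262 in dissociated libraries, with 12 of 12 higher at a median log2 fold change of 1.19. The 10 smooth muscle markers summed to 41431 to 43205 against 2239 to 3386, with 10 of 10 lower. The dissociation list summed to 840 to 1092 against 21454 to 25978, with 27 of 27 higher. Per 1000 fibroblast-marker counts, Dcn was 150 to 182 in intact and 201 to 251 in dissociated libraries, and Bgn was 48.7 to 58.3 and 40.3 to 41.3. On that scale Ogn (9.24 to 9.94 against 4.53 to 6.96), Prelp (24.7 to 29.1 against 14.1 to 20.1) and Podn (7.31 to 7.92 against 5.13 to 5.80) lay lower in dissociated libraries. Lum (15.3 to 19.9 against 20.5 to 30.5) and Omd (0.0469 to 0.0637 against 0.0698 to 0.129) lay higher, and Aspn (0.342 to 0.489 against 0.396 to 0.570) and Fmod (2.13 to 2.95 against 1.59 to 2.26) overlapped. These ratios are descriptions, and what the loss of muscle did to each member was not tested.

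**Figure D5:**
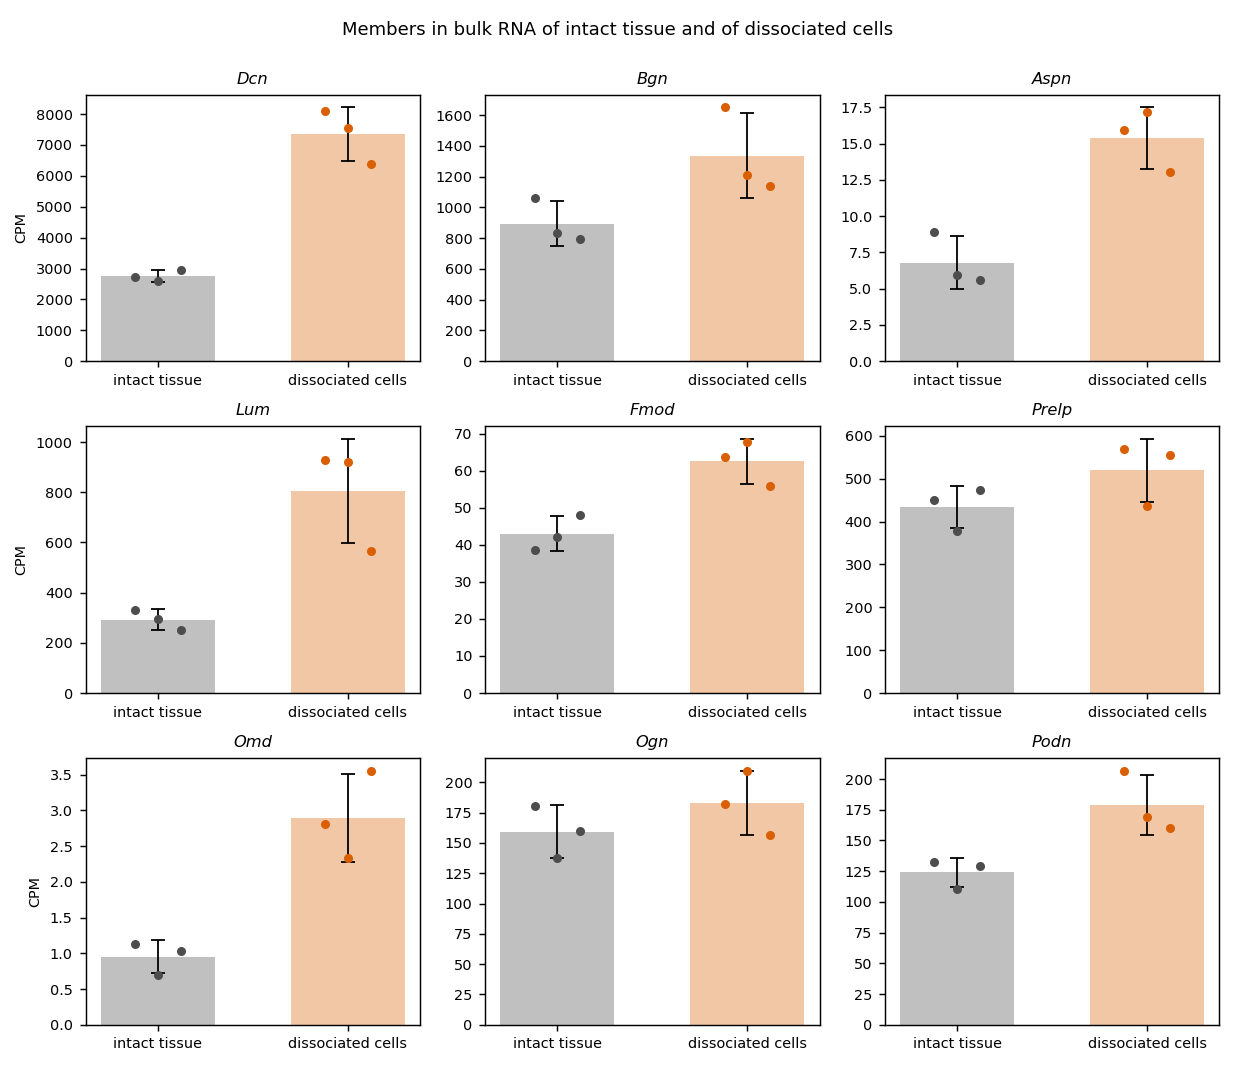
Level of each member (CPM) in the 3 intact and 3 dissociated bulk libraries; bars are means from 0, error bars are SD and points are libraries. The groups do not overlap for Dcn, Bgn, Aspn, Lum, Fmod, Omd and Podn, and they overlap for Prelp and Ogn. The share of all genes without overlap was not counted.

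Other genes of the same matrix moved in the bulk comparison. Of 12 fibrillar collagen and cross-linking genes 10 were higher and none lower (median log2 fold change 0.99), with Lox at 1.66. Of 11 elastic fibre genes 9 were higher and 1 lower (1.16), with Fbn1 at 1.74, and all 5 genes of collagens VI, XII and XIV were higher (0.88). Of 15 chondroitin and dermatan sulphate enzymes 10 were higher and 3 lower (0.72), and Xylt1, which starts the sugar chain, was at 1.48. The median over all genes was -0.03.

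Of 13 tested genes on a list of matrix proteases, procollagen proteinases and their enhancers 12 were higher and none lower. Adamts4, an aggrecanase, had 9.44 ± 0.915 CPM (SD, n = 3) in intact and 782 ± 81.2 CPM (n = 3) in dissociated libraries (log2 fold change 6.48, edgeR adjusted p 4.31e-07). Adamts1 had 60.9 ± 8.24 and 1164 ± 127 CPM (4.37). Among 7 tested relatives in the same family 2 were higher and 2 lower. Ecm2, which neighbours Aspn, rose from 24.6 ± 1.88 to 53.2 ± 6.44 CPM (1.22). Optc (opticin), 0.615 kb from Prelp, was lower at 74.3 ± 7.25 against 6.93 ± 2.04 CPM (-3.31), as was Tsku at 373 ± 21.1 against 121 ± 28.0 CPM (-1.51).

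The genes most like each member were taken over 55 class sums of at least 50 cells, compared with 9621 genes by Pearson's r of log CPM. The sums share libraries and class names, and several genes named here helped to name classes, so the r is a description. Dcn was nearest to Nbl1 (0.94), Bgn to Mgp (0.93), Lum to Clec3b (0.91, a class marker) and Prelp to Lhfp (0.91). Aspn was nearest to Pdgfrb (0.90), the receptor of mural cells, Omd to Igfbp6 (0.90), Ogn to Ptgis (0.91), Fmod to Opcml (0.85) and Podn to C1s1 (0.92). Among members r was 0.89 for Dcn and Podn, 0.87 for Bgn and Prelp, and 0.16 for Aspn and Fmod. For neighbours in the genome r was 0.85 for Dcn and Lum, 0.73 for Omd and Ogn, 0.61 for Prelp and Fmod, 0.51 for Aspn and Ogn, and 0.34 for Aspn and Omd.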

How the data were processed

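The deposited tables hold counts: UMI counts per gene and barcode or spot, and reads per gene in bulk, which the authors did not normalise. The submitters' processing notes name bcl2fastq, Cell Ranger, Space Ranger, Subread and featureCounts, and the mm10 build; versions and the bulk strand setting are not given in the sources used here.

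Barcodes with under 500 UMIs or over 20% mitochondrial counts were left out; the files of libraries 1 and 2 held 0% mitochondrial counts, so this limit could not act there and all their barcodes passed. Doublets were scored by comparison with simulated doublets, and the top 0.8% per 1000 barcodes was removed. Cells were clustered per library (scanpy 1.11.5, Leiden resolution 1) and named with at least 3 markers. As first written, the naming rule asked that a marker be raised over all other cells, which left abundant classes unnamed; it was changed, after clusters were seen, to cells of clusters of other provisional classes, and a cluster of 65 cells in library 4 with more urothelial than muscle counts was left unnamed. The first rule was kept as an alternative.

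Counts were summed per library and class or per section and tested with edgeR 4.0.16 (quasi-likelihood, TMM, filterByExpr) with Benjamini-Hochberg adjustment over all genes, in R 4.3.3. DESeq2 1.42.0, other scalings, no filter, left-out libraries and the first naming rule were among the alternatives. On simulated data the bulk test recovered 110 of 110 genes at a log2 change of 2 and 45 of 90 at 1. The section test recovered 90 of 91 and 19 of 108, and the subset test 96 of 96 and 76 of 104. The simulation gave every gene the same spread, had no library or section effects and left out genes with few expected counts. The spread was a set value and was not estimated from these data. Its rates therefore hold for that setting alone, do not give the power of the tests on these data and do not cover sparse genes.

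The text names the 9 members and, from each gene list, up to 4 genes with the largest bulk change past the threshold. Members and lists were chosen with earlier results of these data known.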

Additional observations from a re-analysis of the deposited data

Results flagged for a closer look

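In sections, the difference between collagen-rich and muscle-rich spots went opposite ways at the 2 ages for Fmod and Omd, and that difference between ages was not tested. All 9 members were screened for such a split in the 3 spot contrasts, and between male and mixed whole-bladder pools for Pi16 against Cxcl14. The contrasts with the Inmt subset could not be screened, since no mixed whole-bladder pool had an Inmt sum. Other genes were not screened, so no share over all genes can be given. With 1 CPM added to each level, the log2 ratio for Fmod was -0.06 and -1.28 in the 22-month sections (mean -0.67) and 0.78 and 0.29 in the 14-month sections. For Omd it was -0.25 and -0.82 at 22 months (mean -0.53) and 0.04 and 0.32 at 14 months, on levels of 0.674 to 2.82 CPM, where the added 1 CPM shrinks the ratio. The Omd directions rest on a few molecules: 3, 3, 5 and 8 UMIs in collagen-rich against 4, 7, 6 and 6 in muscle-rich spots of sections 1 to 4.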

How the results depend on the processing

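Of 1077 alternative values of the 90 member fold changes, 976 kept direction and call, 42 lost the call, 26 gained it and 33 changed direction, 0 of these in a value called on either side. Reversed by a setting were, in nuclei, Ogn by library size alone (0.095) and Podn with no filter (-0.14) and doublets kept (-0.037). Between cell ages they were Dcn (0.081) and Aspn (0.37) under the first naming rule, and Prelp (0.060) and Ogn (-0.0088) with no sex term. Fmod of Cxcl14 against Inmt reversed by most UMIs (0.60) and thinned (0.26), and Podn of collagen-rich against muscle-rich spots in the stricter top share (-0.023). The other reversals came with 1 library or section left out, where log2 changes ranged as follows. Between section ages Aspn ranged from -0.54 to 0.18, Omd from -0.15 to 0.027 and Ogn from -0.9986 to 0.28. In nuclei Podn ranged from -0.073 to 0.20. Between cell ages Dcn ranged from -0.27 to 0.056, Bgn from -0.16 to 0.60, Aspn from -0.43 to 0.28, Lum from -0.36 to 1.69, Fmod from -0.76 to 1.25, Prelp from -0.16 to 0.17 and Ogn from -0.30 to 0.56. Bgn of Pi16 against Inmt ranged from -0.10 to 0.11. In collagen-rich against muscle-rich spots Aspn ranged from -0.39 to 0.21, Fmod from -0.63 to 0.11 and Podn from -0.15 to 0.40. Of 122 alternative counts of members called, 109 stayed within 1.5 times. The others were: bulk with a log2 minimum of 1, 3 members; nuclei by library size alone 0 and with the 12-month cell libraries only 5; Pi16 against Cxcl14 without the library block 4; Pi16 against Inmt by most UMIs 2, thinned 1, under the first naming rule 1 and without the block 0; collagen-rich against muscle-rich spots with the top 10% 4 and without the section block 1; section ages without section 1, 1 against 0; cell ages without library 5, 1 against 0; and Pi16 against Inmt without the detrusor-enriched library, 3 against 5. With each library or section left out in turn, the members called numbered 7 to 8 in bulk, 0 to 1 between section ages, 2 to 3 in nuclei, 0 to 1 between cell ages, 6 to 9 for Pi16 against Cxcl14, 3 to 5 for Pi16 against Inmt, 5 to 8 for Cxcl14 against Inmt, 8 to 9 for muscle-rich and 8 for collagen-rich against urothelium-rich (Omd not tested without section 1, 2 or 3), and 2 to 3 for collagen-rich against muscle-rich spots. The median Bgn of smooth muscle-like cells was 739 CPM with doublets kept and 814 under the first naming rule, against 685. Genes called moved by more than 1.5 times in bulk with a log2 minimum of 1 (1789 against 9798); between section ages (0) with DESeq2 420, library size 38, no filter 287, and without section 1 300, section 3 1 and section 4 18; in nuclei without library 3 (1982 against 2986); between cell ages (2) with DESeq2 8, no filter 27, and 0 with other size factors, the first naming rule, doublets kept or no sex term, and 0 to 118 with a library left out; for Pi16 against Cxcl14 (2063) by most UMIs 3582, thinned 1323 and without the block 772; for Pi16 against Inmt (747) thinned 305, first rule 305, no block 131 and without the detrusor-enriched library 497; and for Cxcl14 against Inmt (1708) by most UMIs 3164, first rule 1089 and no block 709. By library size alone the share of higher calls moved from 34.9% to 84.9% in nuclei (47.2% with other size factors), 40.2% to 64.7% for Pi16 against Inmt, 46.1% to 63.4% for Cxcl14 against Inmt, 46.9% to 61.6% for collagen-rich against urothelium-rich and 52.9% to 65.6% for collagen-rich against muscle-rich spots. That scaling moved the median log2 change of all genes from -0.03 to -0.14 in bulk, -0.01 to 0.15 for Pi16 against Inmt, 0.03 to 0.21 for Cxcl14 against Inmt, -0.08 to 0.08 for collagen-rich against urothelium-rich and 0.05 to 0.18 for collagen-rich against muscle-rich spots. Bulk libraries with the same number correlated at 0.20, 0.34 and -0.07 in their deviations, and those with different numbers at -0.44 to 0.27. With deviations from means of 3 libraries this cannot settle whether the numbers pair them. With the replicate block 8 members were called, adding Prelp. Depth limits Aspn, Fmod and Omd, which rest on few UMIs in several sums.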

Other observations

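Relatives of the family that are not among the 9 members were counted in the same classes. Their CPM were scaled to smaller totals than those of the members, so they cannot be set beside the member levels. Epyc was 0 to 3.88 CPM in fibroblast-like cells (147 UMIs) and at most 0.927 CPM in any other class, from at most 2 UMIs a class. Kera was at most 0.616 CPM in fibroblast-like cells (9 UMIs) and at most 1.86 in unnamed cells (1 UMI). Chadl was 2.38 to 17.4 CPM in fibroblast-like (954 UMIs) and 31.9 to 63.5 in Schwann-like cells (122 UMIs). Podnl1 was 42.3 to 212 CPM in T or NK-like cells (106 UMIs over 5 libraries). Optc lay between 8.29 and 213 CPM in smooth muscle-like cells (1301 UMIs over 3 libraries), with 216 in the unnamed detrusor-enriched cluster led by Col25a1, and between 1.13 and 62.0 CPM in fibroblast-like cells. Tsku was 47.1 to 193 CPM in urothelial-like cells (5571 UMIs over 7 libraries). Ecm2 was 109 to 200 CPM in lymphatic endothelial-like cells of 5 libraries, against 13.6 to 50.5 CPM in fibroblast-like cells. It reached 105 CPM in blood endothelial-like and 98.2 in pericyte-like sums, and was 363 CPM (195 UMIs) in the unnamed cells of the detrusor-only library.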
